A study of Mus musculus with 2 samples.

Results

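The genes described here are Trp53, which encodes the transcription factor p53, and 30 genes that p53 is known to activate, in primary mouse myoblasts with and without deletion of Mll1 (Kmt2a). Members were chosen by gene symbol, as probe sets whose only symbol in the array's probe-to-gene table was that of a listed gene. Of the 31 listed genes, 28 were measured, each by 1 probe set, among 19938 genes that could be named in all. Trp53 and Bax were not analysed here, and the only probe set listed for Cdkn1a has a second symbol as well, so no signal was assigned to these 3 genes.

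The Mll1 cKO culture consisted of myoblasts with floxed Mll1 alleles and a Rosa-CreER transgene, a tamoxifen-dependent Cre recombinase made from the ubiquitous Rosa26 locus, grown for 7 days with 500 nM 4-hydroxytamoxifen in 0.01% ethanol and for 3 more days without either, as the labels state. The study's methods give a shorter washout. The control culture came from the same line, carried the same floxed alleles and the same CreER, and received 0.01% ethanol alone on the same schedule, so effects of the drug, of active Cre and of the deletion cannot be told apart. Both grew in medium with 20% serum and 5 ng/ml FGF. The measurement was total RNA on Affymetrix MoGene 1.0 ST arrays, 1 per culture, and its unit is the log2 signal of a probe set after RMA, a normalization that the authors ran. Since each condition is a single array, no difference could be set against a spread between cultures, none was tested, and precision is limited by that number. All differences are log2 Mll1 cKO minus log2 control, and signals are compared between the arrays, since the level of 1 probe set cannot be set against that of another.

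The labels could be checked only in part. Kmt2a had a log2 signal of 9.66 in Mll1 cKO myoblasts and 9.44 in control myoblasts, but its signal summarises probes along the transcript and the sources name different exons as removed, so it checks nothing about the deletion. The study itself assessed the deletion by RT-qPCR and reported loss of MLL1 protein. Of 10 myoblast markers, Myod1 and Pax7 among them, all but Myf5 had signals of at least 9.32 in both arrays, and Myf5 had 6.14 in Mll1 cKO and 9.51 in control. Markers of most other cell types were mostly lower in Mll1 cKO, while those of smooth muscle and pericytes, given below, were not. None of 5 endothelial, 5 measured immune and 2 measured Schwann cell markers was higher, and 6 of 7 fibroblast and 3 of 4 adipocyte markers were lower. The summed linear signal of the fibroblast markers was 467 in Mll1 cKO and 578 in control. Apart from some fibroblast markers, these had signals below the median of all named genes in both arrays. When named genes were split into 5 groups by mean signal, 24.1% of the lowest group and 19.0% of the next were higher. Whether fewer cells of other types were present was not tested.

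p53 is held at a low level in unstressed cells by the ubiquitin ligase MDM2 and its partner MDM4. DNA damage and other stresses release it from them, mainly by changing the stability of the protein, and it then activates genes of cell cycle arrest, apoptosis, DNA repair and its own negative feedback. In muscle, Cdkn1a is also switched on when myoblasts leave the cell cycle to differentiate, in part independently of p53.

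Most of the p53 target genes were slightly higher in Mll1 cKO than in control myoblasts, and only 1 of them passed the 2-fold cut-off of the study's methods. Of the 28 genes, 25 were higher by any amount and 3 were lower, whereas 41.6% of all named genes were higher and 55.6% were lower. Their median log2 difference was 0.29, and that of all named genes was -0.05. Perp, at 3.29-fold higher, was the only gene past 2-fold in either direction, against a background of 1.16% of named genes past it upwards and 0.11% downwards. At 1.5-fold, 5 of the 28 were higher (Perp, Plk3, Trp53inp1, Ddb2 and Pmaip1) and none was lower, with 4.86% of named genes past this cut-off upwards and 2.01% downwards. Since RNA came from whole cultures, fewer cells of a type and less RNA per cell cannot be told apart.

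Differences varied with signal strength over the whole array. Of the named genes with a mean log2 signal over 7 in both arrays together, a filter chosen after the data were seen, 58.6% were higher in Mll1 cKO, 41.2% were lower and the median difference was 0.06. In this range 6.54% were over 1.5-fold higher, 1.87% over 1.5-fold lower, 1.36% over 2-fold higher and 0.204% over 2-fold lower. Of the 28 p53 target genes, 20 had such a mean signal, of which 19 were higher and 1 was lower, with a median of 0.26, 2 over 1.5-fold higher and none over 2-fold. When the whole array was centred, or its trend on signal was removed, 51.0% of named genes were higher under either setting, and 46.7% were after quantile normalization, while 25 or 26 of the 28 p53 target genes were. The share of named genes over 1.5-fold higher was then 6.14% when centred, 5.29% without the trend and 4.5% after quantile normalization. Control probe sets are left out throughout, and with them 2.62% of probe sets were over 2-fold higher, against 1.15% without them.

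**Figure D1:**
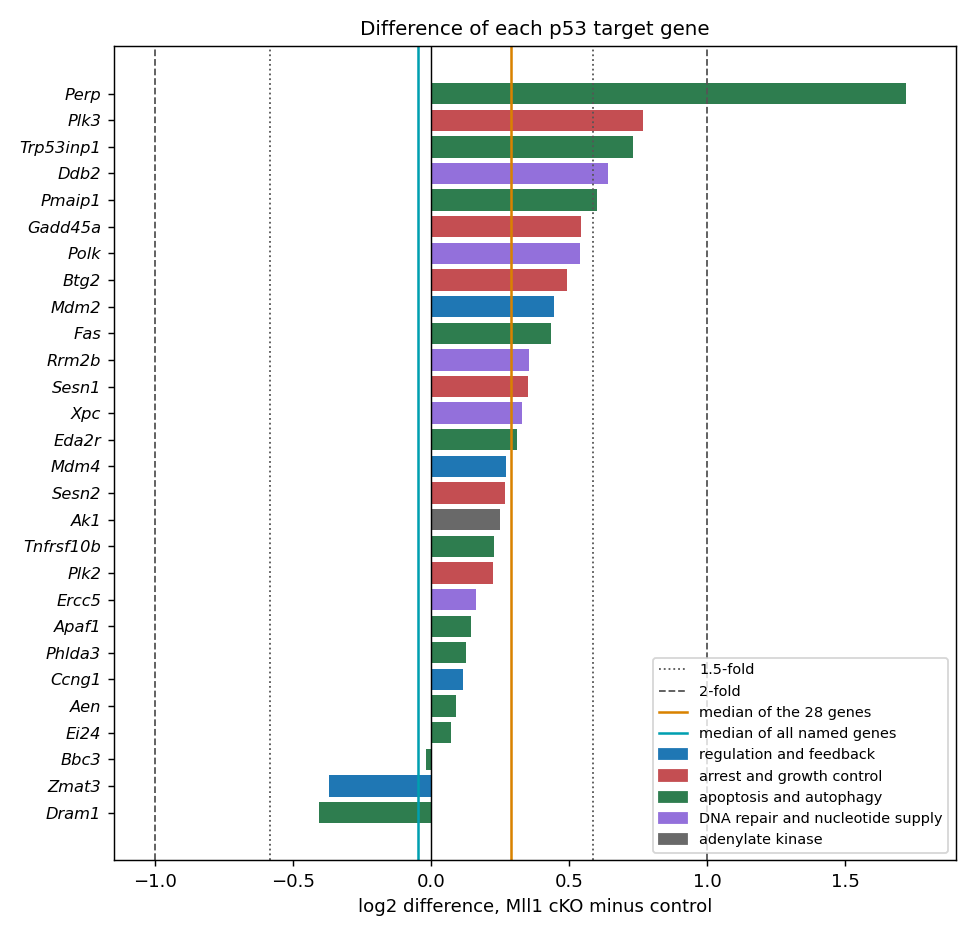
Each bar is the log2 difference of 1 gene, Mll1 cKO minus control, ordered by size and coloured by role, with 1 array per condition and so no error bars. Of the 28 bars, 25 lie to the right of 0, Perp alone passes 2-fold, and the median of the 28 genes (0.29) lies to the right of that of all named genes (-0.05).

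p53 binds a response element made of a pair of half-sites, each a run of purines, a core of C, A or T, A or T and G, and a run of pyrimidines. Starts were matched in RefSeq (GRCm38.p6) for 23 of the 31 genes, which gave 33 windows from 250 bases before to 50 after a start. A perfect p53 half-site, a 10-base pattern that reads the same on both strands, was found for 10 of the 23 genes, against 9.55% of all genes. By windows the shares were 33.3% of the 33 and 8.36% of the 32851 of all genes. Since the 23 genes were listed as p53 or its known targets, a higher share may come from that choice, which was not tested. A full site, with both half-sites perfect and at most 13 bases apart, was found for Cdkn1a alone, and 20 of all 27025 genes had one. With 1 mismatch allowed in a full site, Bax, Ccng1 and Polk also had one, 4 of 23 genes against 1.24% of all genes. The motif TATAAA, on either strand, was found for 3 of the 23 genes. By windows the shares were 9.09% of those of the 23 genes and 13.6% of all windows. A match describes the letters of the window and not binding, which was not measured on these arrays, and sites outside the windows were not searched.

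Of the windows that hold such full sites, those of Cdkn1a, Ccng1 and Polk are shown, with the half-sites in capitals, and that of Bax is not. That of Cdkn1a is chr17:29090729-29091028 on the plus strand, at the upstream of its 2 starts, that of Ccng1 is chr11:40755237-40755536 on the minus strand, and that of Polk is chr13:96519138-96519437 on the minus strand, at 1 of its 2 starts. The Cdkn1a window has the perfect pair, 12 bases apart, and a second pair with no spacer and 1 mismatch that shares the middle half-site.
Cdkn1a: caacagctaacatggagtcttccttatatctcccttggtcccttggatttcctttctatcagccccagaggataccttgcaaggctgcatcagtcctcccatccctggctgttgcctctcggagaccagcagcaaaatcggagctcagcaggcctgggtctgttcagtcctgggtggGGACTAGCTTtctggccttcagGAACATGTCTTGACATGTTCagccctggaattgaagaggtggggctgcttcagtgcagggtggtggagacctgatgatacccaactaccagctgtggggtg
Ccng1: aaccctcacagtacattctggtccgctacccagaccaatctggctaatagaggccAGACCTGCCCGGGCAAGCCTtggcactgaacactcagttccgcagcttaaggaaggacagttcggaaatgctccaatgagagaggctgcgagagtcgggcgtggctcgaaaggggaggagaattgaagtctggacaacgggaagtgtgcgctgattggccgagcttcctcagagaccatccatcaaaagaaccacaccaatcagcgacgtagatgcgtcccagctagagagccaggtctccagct
Polk: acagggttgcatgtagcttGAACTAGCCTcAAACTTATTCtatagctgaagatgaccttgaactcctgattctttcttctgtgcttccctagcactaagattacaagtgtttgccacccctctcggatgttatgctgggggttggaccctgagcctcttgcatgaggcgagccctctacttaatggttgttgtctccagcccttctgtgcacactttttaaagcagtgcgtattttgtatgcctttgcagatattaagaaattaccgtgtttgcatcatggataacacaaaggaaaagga

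Single perfect half-sites were found for 5 further measured genes, and they are shown because they complete the measured genes with one. All 5 genes were higher in Mll1 cKO, as were 25 of the 28 with or without such a site. They lie 186 bases before the start of Mdm2, 173 before that of Sesn1, 121 before the later start of Aen, 40 before that of Gadd45a and 10 before that of Ei24, counted to their first base.
Mdm2: GAACTTGCCT
Sesn1: AAGCTTGTTT
Aen: GGGCTTGTCC
Gadd45a: GGGCTAGCCC
Ei24: GGGCATGCCC

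Of the regulators of p53 and its feedback, 3 of 4 were higher and none passed 1.5-fold. Mdm2, the ubiquitin ligase that marks p53 for degradation and is itself a p53 target, had a log2 signal of 10.71 in Mll1 cKO and 10.26 in control and was 1.36-fold higher. Of all named genes, 91.8% had a lower difference. Mdm4, the partner of MDM2 that blocks the activation domain of p53, had 8.76 in Mll1 cKO and 8.49 in control. Ccng1, cyclin G1, which recruits a phosphatase to MDM2, had 12.23 in Mll1 cKO and 12.12 in control. It was 1.08-fold higher, the smallest difference of the 3 higher genes, and its window is among those shown above. Zmat3, a zinc finger protein that binds RNA, went the other way, with 8.96 in Mll1 cKO and 9.33 in control, or 1.29-fold lower.

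Every one of the 6 measured genes of arrest and growth control was higher in Mll1 cKO, and their median difference of 0.42 was the largest of the 4 roles with several genes. Plk3, a polo-like kinase of the stress response, had a log2 signal of 8.83 in Mll1 cKO and 8.07 in control and was 1.70-fold higher. Gadd45a, a growth arrest and DNA damage protein that acts at the G2/M transition, had 8.73 in Mll1 cKO and 8.19 in control, or 1.46-fold higher. Btg2, an antiproliferative protein that recruits mRNA deadenylases, had 8.52 in Mll1 cKO and 8.03 in control. It was 1.41-fold higher, so that these 3 genes lay above 93.0% or more of all named genes. The sestrins, stress proteins that restrain mTORC1, were closer to control. Sesn1 had 7.09 in Mll1 cKO and 6.74 in control, and Sesn2 had 8.75 in Mll1 cKO and 8.49 in control. Plk2, another polo-like kinase, had the smallest difference of the group, at 9.54 in Mll1 cKO and 9.32 in control.

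Cdkn1a encodes p21, the inhibitor of cyclin-dependent kinases through which p53 arrests the cell cycle. Its only probe set, 10443463, is listed for 4930567H12Rik too, so its signal cannot be assigned to 1 gene, and it is left out of all counts. It had a log2 signal of 12.13 in Mll1 cKO and 11.66 in control, a difference of 0.48, or 1.39-fold higher.

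**Figure D2:**
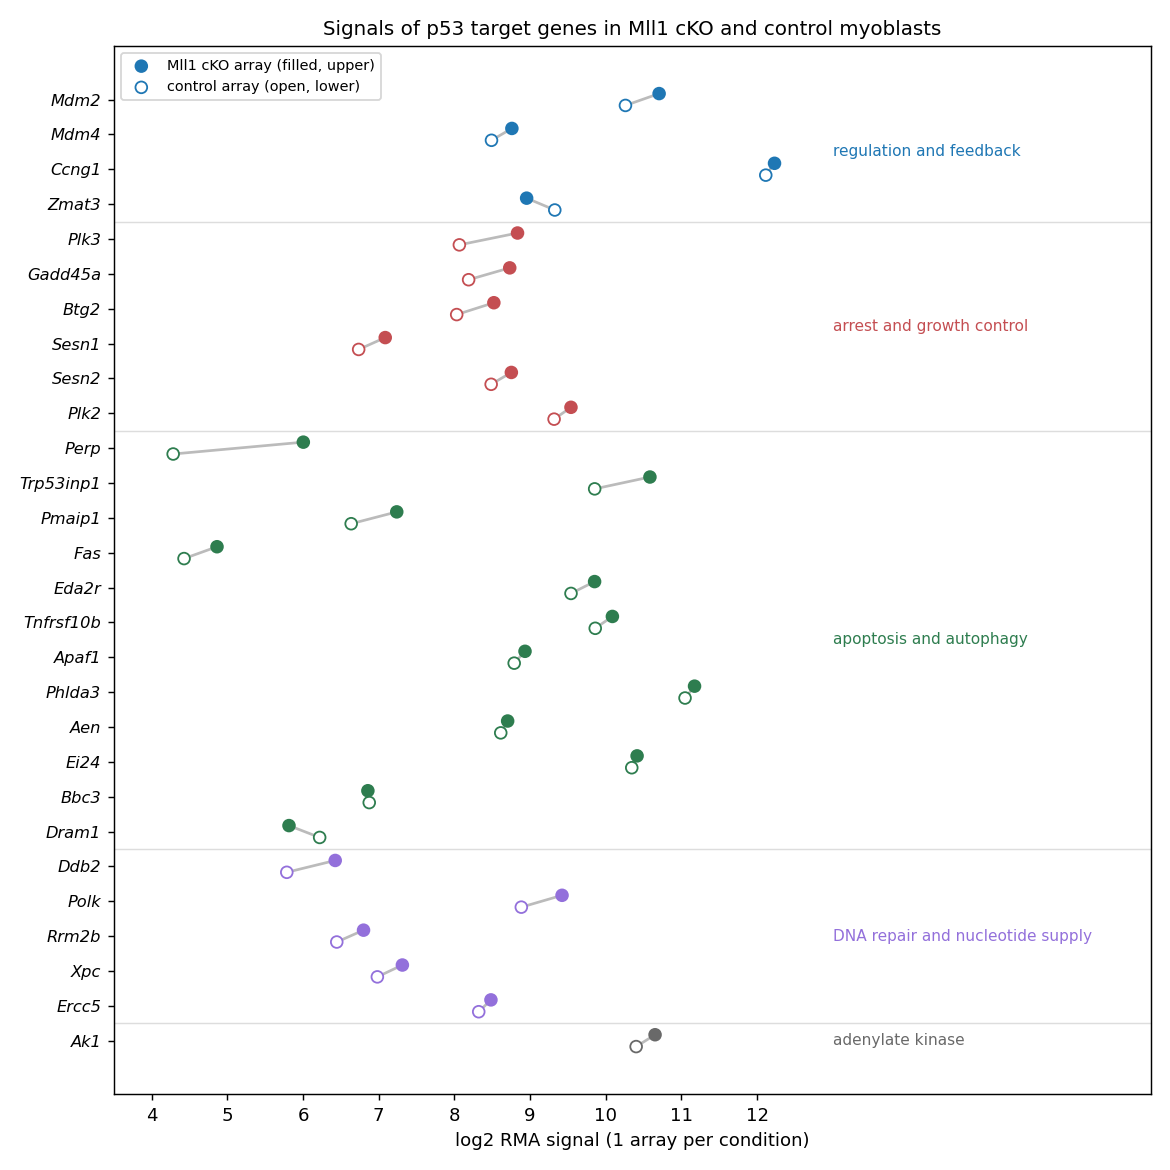
Log2 RMA signals of the 28 genes, grouped by role, with the Mll1 cKO array as filled points and the control array as open points, 1 array each. The filled point lies to the right of the open one for 25 genes and to the left for Zmat3, Bbc3 and Dram1, and the widest gap is that of Perp (6.00 in Mll1 cKO and 4.28 in control).

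The genes of apoptosis and autophagy held both the highest and the lowest of the 28 differences, with 10 of 12 higher and a median of 0.18. Perp, a membrane protein of the tetraspan family that takes part in p53-dependent apoptosis and in desmosomes, had a log2 signal of 6.00 in Mll1 cKO and 4.28 in control. Its log2 difference of 1.72 was the 29th highest of the 19938, but at low signal. Both of its signals lay below the medians of all named genes, which were 6.19 in Mll1 cKO and 6.12 in control. Trp53inp1, a nuclear protein that promotes p53 activity and autophagy, had 10.58 in Mll1 cKO and 9.85 in control and was 1.66-fold higher.

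Among effectors of the mitochondrial pathway, the BH3-only genes Pmaip1 and Bbc3 differed. Pmaip1, which encodes NOXA, had 7.24 in Mll1 cKO and 6.64 in control, or 1.52-fold higher. Bbc3, which encodes PUMA, had 6.86 in Mll1 cKO and 6.87 in control. Apaf1, the scaffold of the apoptosome, was 1.10-fold higher, with 8.93 in Mll1 cKO and 8.79 in control. The difference of Pmaip1 lay close to 1.5-fold and fell short of it, at 0.57 and 0.50, when the trend on signal was removed or the arrays were quantile normalized again.

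The listed receptors of the TNF receptor family were all higher, by less than 1.5-fold. Fas, the receptor for Fas ligand, had 4.86 in Mll1 cKO and 4.43 in control and was 1.35-fold higher. Both signals lay below the medians of all named genes, 6.19 in Mll1 cKO and 6.12 in control. Fas passed 1.5-fold when the trend on signal was removed (0.64) or after quantile normalization (0.59). Eda2r, a receptor for ectodysplasin A2 in muscle and other tissues, had 9.85 in Mll1 cKO and 9.54 in control. Tnfrsf10b, the mouse receptor for TRAIL, had 10.09 in Mll1 cKO and 9.86 in control, which made it 1.17-fold higher. Of the others, Phlda3, a repressor of AKT, had 11.17 in Mll1 cKO and 11.05 in control. Aen, an exonuclease of apoptotic cells, had 8.70 in Mll1 cKO and 8.61 in control. Ei24, an endoplasmic reticulum protein, had 10.41 in Mll1 cKO and 10.34 in control, and these 3 genes differed by at most 1.09-fold. Dram1, a lysosomal protein that links p53 to autophagy, was 1.32-fold lower, with 5.81 in Mll1 cKO and 6.22 in control, and it was the lowest of the 28.

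All 5 genes of DNA repair and nucleotide supply were higher, with a median of 0.35. Ddb2, which recognises ultraviolet damage in chromatin, had a log2 signal of 6.43 in Mll1 cKO and 5.79 in control and was 1.56-fold higher. Its partner in damage recognition, Xpc, had 7.31 in Mll1 cKO and 6.98 in control, or 1.26-fold higher. Polk, a DNA polymerase that copies past damaged bases, had 9.42 in Mll1 cKO and 8.88 in control, or 1.45-fold higher. Next came Rrm2b, the ribonucleotide reductase subunit that supplies nucleotides for repair outside S phase, with 6.80 in Mll1 cKO and 6.45 in control. Ercc5, the endonuclease that cuts on the 3′ side of a lesion, had the smallest difference, at 8.48 in Mll1 cKO and 8.32 in control. The other 10 measured genes of nucleotide excision repair, from Xpa to Gtf2h1, were split, with 5 higher and 5 lower, none past 1.5-fold and a median of 0.04.

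Ak1, adenylate kinase 1, an enzyme of energy transfer that is abundant in skeletal muscle, had 10.65 in Mll1 cKO and 10.40 in control and was 1.19-fold higher.

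**Figure D3:**
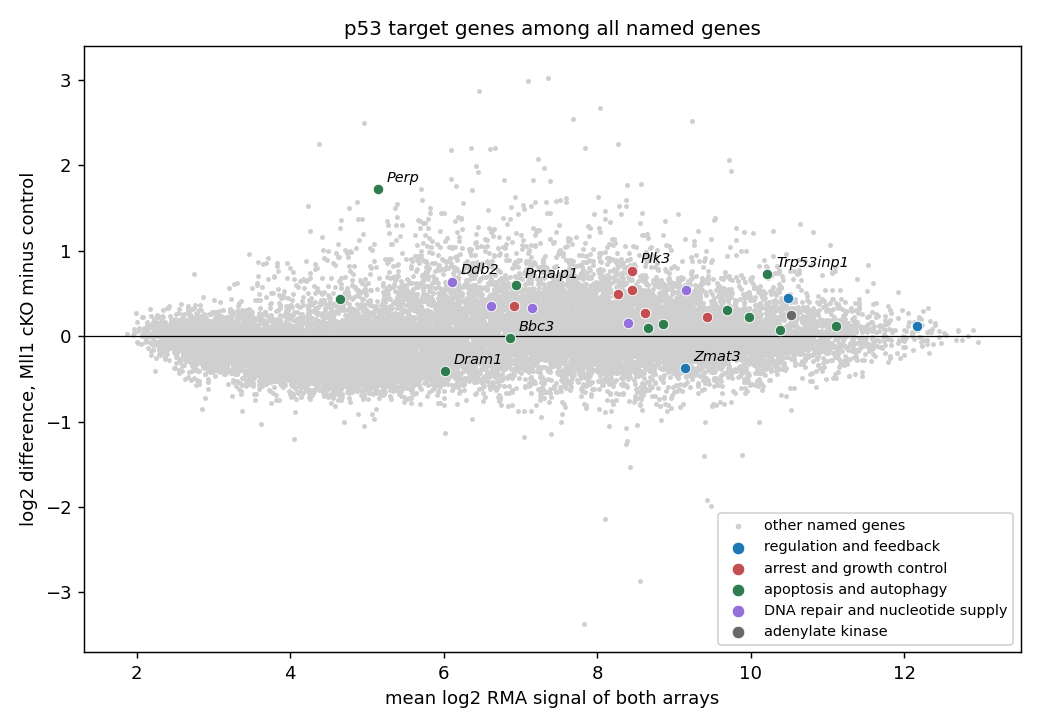
Log2 difference, Mll1 cKO minus control, against the mean log2 signal of both arrays, with the 28 genes coloured by role and all other named genes in grey. Genes over 1.5-fold higher and genes that were lower are labelled, and 25 of the 28 lie above 0, at signals where named genes lie on both sides.

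The genes around p53 that are not among its 28 measured targets were examined as lists. A list of 35 further p53 targets had 31 measured genes, and their median was 0.14, with 19 above 0 and 12 below. In this list 2 genes were past 2-fold and 5 past 1.5-fold, all of them higher in Mll1 cKO, with 1.16% and 4.86% of all named genes past these cut-offs upwards. Pltp, a phospholipid transfer protein, had a log2 signal of 8.06 in Mll1 cKO and 6.62 in control, or 2.72-fold higher, and Ephx1, microsomal epoxide hydrolase, had 10.22 in Mll1 cKO and 8.84 in control, or 2.61-fold higher. The others over 1.5-fold were Ptprv, a receptor tyrosine phosphatase (1.77-fold), Shisa5, a membrane protein that promotes apoptosis (1.61-fold), and Dcxr, a carbonyl reductase (1.53-fold). Dcxr fell short of 1.5-fold without the trend on signal (0.57) and after quantile normalization (0.53). The median of the list was 0.04 after quantile normalization, where that of all named genes was -0.02 and that of the 28 genes was 0.23, and the difference between both lists was not tested.

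Genes that act on p53 were close to the background. Of 14 measured p53 relatives, upstream kinases, acetyltransferases and nucleolar regulators, such as Trp63, Atm and Ep300, 6 lay above 0, 7 below and 1 at 0, and the median was -0.02. Only Chek1, the S phase checkpoint kinase, passed 1.5-fold, with 8.40 in Mll1 cKO and 9.10 in control, or 1.63-fold lower. Of 9 genes listed as negative regulators, including the phosphatase Ppm1d and the ubiquitin ligases Cop1 and Rchy1, none passed 1.5-fold. Their median was 0.01, and not all of the 9 act only against p53.

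Downstream of p21, the DREAM complex represses cell cycle genes, and a list of 24 of them had 22 measured, Chek1 included. All 22 were lower in Mll1 cKO, 8 of them by over 1.5-fold and none by over 2-fold, with a median of -0.54, where 55.6% of all named genes were lower and 2.01% were lower by over 1.5-fold. The mitotic checkpoint kinase genes Bub1 and Bub1b were 1.77-fold and 1.74-fold lower, Cdc25c, a phosphatase that starts mitosis, was 1.75-fold lower, and Birc5, survivin, was 1.70-fold lower. The list was drawn up from known regulation, and the study also reported reduced proliferation of Mll1 cKO myoblasts. The part of p21, of DREAM or of proliferation in these differences was not tested. Among the 6 other CDK inhibitors, 5 were lower and 1 was higher, and 2 were higher under centring or without the trend on signal. Cdkn2c, which encodes p18, had a log2 signal of 7.02 in Mll1 cKO and 8.03 in control, or 2.01-fold lower. Of all named genes, 0.11% were over 2-fold lower, and Cdkn2c fell short of 2-fold under centring (-0.95). Cdkn2b, which encodes p15, had 9.11 in Mll1 cKO and 8.46 in control, or 1.57-fold higher.

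Markers of differentiating muscle were also higher in Mll1 cKO. Of 12 such genes, 11 were higher, 7 of them by over 2-fold, and the median was 1.09, where 41.6% of all named genes were higher and 1.16% were higher by over 2-fold. Without the trend on signal or after quantile normalization, 6 were over 2-fold, since Actn2, an actinin of the sarcomere, had 0.99 and 0.96. Smpx, a small protein of striated muscle, had a log2 signal of 7.74 in Mll1 cKO and 6.11 in control, or 3.10-fold higher, and Myh1, a fast myosin heavy chain, was 2.36-fold higher. Myog, which encodes myogenin, had 7.94 in Mll1 cKO and 7.30 in control, or 1.56-fold higher. The study called its mRNA unchanged, by array and RT-qPCR, and excluded early differentiation on that ground. The part of the genes of differentiating muscle in the differences of the p53 target genes was not tested. Of the markers of smooth muscle and pericytes, 3 of 5 were higher, with a median of 0.02. Only Rgs5, a regulator of G protein signalling in pericytes, was past 1.5-fold, with 7.74 in Mll1 cKO and 6.95 in control, or 1.74-fold higher. The summed linear signal of the 5 was 2747 in Mll1 cKO and 2637 in control. Most of it came from Acta2, with a log2 signal of 11.23 in Mll1 cKO and 11.22 in control.

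**Figure D4:**
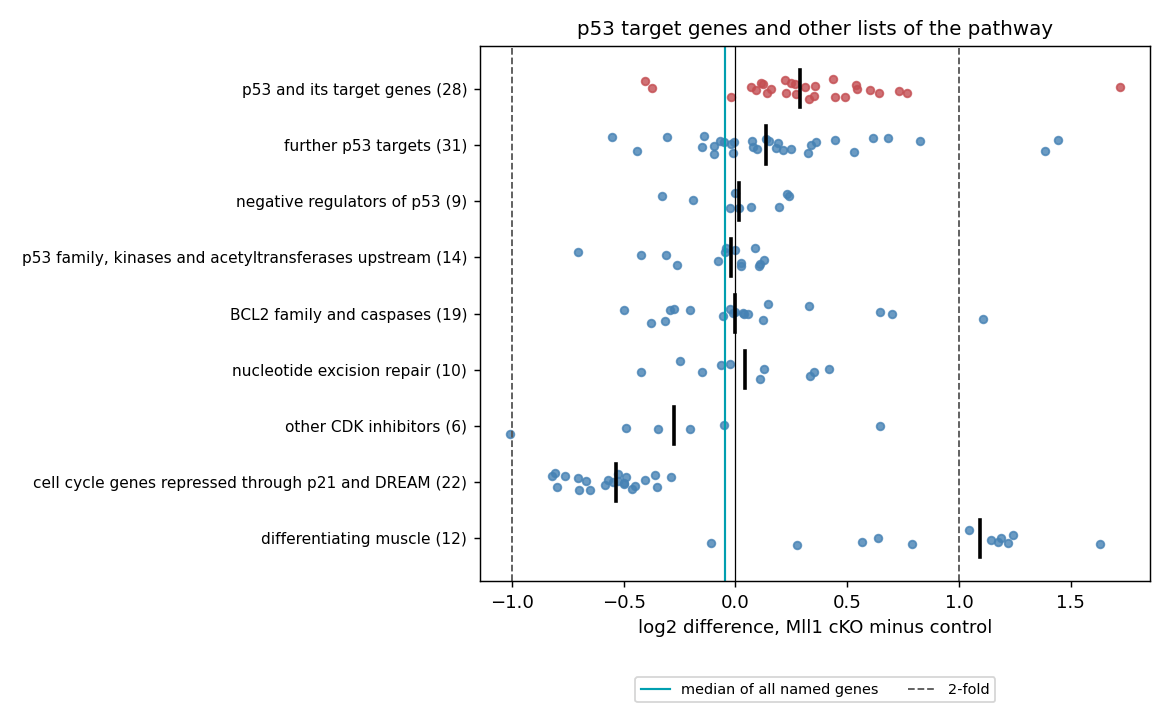
Each point is the log2 difference of 1 gene, Mll1 cKO minus control, in the p53 target genes (red) and 8 other lists (blue), with the number of measured genes in brackets and a black bar at each median. The 22 cell cycle genes listed for known repression through p21 and DREAM, which was not tested here, all lie left of 0 (median -0.54). Of the genes of differentiating muscle, 11 of 12 lie right of 0, and the median of the p53 target genes (0.29) lies between those of both lists.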

How the data were processed

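RNA of 1 Mll1 cKO and 1 control myoblast culture was measured on Affymetrix MoGene 1.0 ST arrays. Values were deposited by the authors as log2 signals of 35557 probe sets, after RMA in Bioconductor. The version and the genome build are not given in the sources used here. A run of 6614 control probe sets was left out. Of the other 28943, the 21789 with 1 symbol in the platform's annotation table named 19938 genes, and those with several (1621) or none (5533) were not named.

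A gene's signal was the mean of its probe sets, its difference was log2 Mll1 cKO minus log2 control, and folds are that difference taken out of log2, as the larger over the smaller. Shares of all named genes past the same cut-off are the background. The named genes are all measured members and, of each further list, at most 5 of those past 1.5-fold, with Kmt2a, Myf5 and Pax7 as checks. Other names are defining markers, examples of what a list holds, given without values, or genes said to be chosen later. Actn2, Rgs5, Myog and Acta2 were named after their values were seen. Members and lists were chosen with earlier results of these data known. Promoter windows are those of RefSeq.

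Alternatives were other cut-offs (1.5-fold, 3-fold), only genes with signals over 7 in the higher array or, added after the data were seen, on average, the brightest probe set, updated symbols, the mean of the list, centring on the median, removal of a lowess trend (span 0.3), quantile normalization and inclusion of control probe sets. The functions were tested on simulated data. Python 3.11.15, numpy 2.4.6, pandas 2.3.3, statsmodels 0.14.6 and matplotlib 3.10.9 were used.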

Additional observations from a re-analysis of the deposited data

How the results depend on the processing

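The count of p53 target genes that were higher, 25 of 28, was 25 or 26 under centring, removal of the trend on signal, quantile normalization, the brightest probe set and updated symbols. Among genes whose higher array exceeded 7 it was 21 of 22, and 59.1% of all named genes under this filter were higher. However, 3 of these p53 target genes (Pmaip1, Sesn1 and Xpc) passed only through Mll1 cKO, where they were higher. With a mean signal over 7, chosen after the data were seen, it was 19 of 20, and 58.6% of named genes were higher. The median of the 28 genes stayed between 0.23 and 0.35, and no role median turned its sign. The count over 2-fold higher was 1, and became 5 at a cut-off of 1.5-fold and 0 under either signal filter, which leaves out Perp. The filters left 3 (higher array) and 2 (mean) over 1.5-fold, against 5 without them. Of named genes, 636 of 8633 (higher array) and 544 of 8323 (mean) were over 1.5-fold higher. At 1.5-fold, Pmaip1 was lost under trend removal and quantile normalization, Fas was gained under both (0.64 and 0.59), and Gadd45a and Polk were gained under centring (0.60 each). Dcxr and Myog were lost under trend removal and quantile normalization, and Cdkn2b under quantile normalization.

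Of the further lists, 3 medians near 0 turned their sign. That of the upstream list was 0.0365 under centring and -0.0756 after quantile normalization. That of the genes listed as negative regulators was 0.0729 under centring, -0.0263 without the trend and -0.0486 after quantile normalization. The BCL2 family and caspases had 0.0360 under either signal filter and 0.0545 under centring. Without a change of sign, nucleotide excision repair had 0.1016 under centring and the further p53 targets had 0.0448 after quantile normalization. The count of genes with a full p53 site was 0 without a spacer and 4 with 1 mismatch. The causes were not tested. No paired analysis was possible because each condition has 1 array, and for the same reason no replicate could be left out.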

Other observations

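The BCL2 family and the caspases, the machinery on which the apoptotic targets of p53 act, showed no common direction. Of 19 measured genes, 9 were higher and 10 were lower in Mll1 cKO, with a median log2 difference of 0.00. Bcl2l11, which encodes the BH3-only protein BIM, had a log2 signal of 7.99 in Mll1 cKO and 6.88 in control and was 2.16-fold higher. Bcl2, the founding inhibitor of apoptosis of the family, had 7.88 in Mll1 cKO and 7.19 in control, or 1.62-fold higher, and the pore-forming Bak1 had 9.39 in Mll1 cKO and 8.75 in control, or 1.56-fold higher. Genes of both the protective and the death-promoting side were thus among the 3 over 1.5-fold higher, against 4.86% of all named genes past this cut-off, and none was over 1.5-fold lower. The lowest was Bok, a relative of BAK1, chosen here after its value was seen, with 8.47 in Mll1 cKO and 8.97 in control.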
